A study of Rattus norvegicus with 24 samples.

Results

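The 37 genes described here encode the enzymes and regulators of sterol and fatty acid synthesis, measured in the liver and spleen of rats given the alkylating drug cyclophosphamide. They were chosen by gene symbol from a list of 38 names, and are 37 of the 14201 genes that a probe set of the array names on its own. Hmgcs1 was not analysed here. The sterol arm holds 22 genes, of which 17 are enzymes from acetyl-CoA to cholesterol, and the fatty acid arm holds 15 genes, of which 13 are enzymes. Where a gene had several probe sets, the probe set with the highest mean over all 24 arrays stands for it.

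All 12 rats were male Sprague-Dawley animals of wild type, 46 to 49 days old, dosed by mouth for 5 days. The 4 groups of 3 rats received vehicle without wood sticks in the cage, vehicle with wood sticks, cyclophosphamide at 40 mg/kg/day without wood sticks, or the same dose with wood sticks. Liver and spleen of each rat were profiled separately on rat Affymetrix arrays from 5 µg of RNA, which gives 24 arrays. Levels are log2 intensities and changes are differences of log2 group means, each with its standard error (SE) from limma, a linear model fitted to all genes at once. A gene was called when its p-value, adjusted by the Benjamini-Hochberg method over all genes tested, was below 0.05. The drug effect is the mean of the effects without and with wood, and the p-values measure the spread between these rats. Precision is limited by having 3 arrays in each group of an organ.

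The organs carried the markers of their labels. The 10 hepatocyte markers had a median level of 13.32 in vehicle livers and 5.75 in vehicle spleens, and the 4 B cell markers had 5.82 in liver and 11.65 in spleen. The liver array of rat 2003, from the drug group without wood, stood apart with 6060 blank probe sets, the most of any liver array. Among spleens, the arrays of rats 1001, 1003, 1005 and 2005 had more blanks than the other spleen arrays. Rats 1001, 1003 and 1005 are the whole vehicle group without wood, so this split and the wood comparison in vehicle spleens largely coincide. The split also lies along the spleen drug comparison without wood, where only rat 2005 of the drug group had more blanks. The main liver results are given with and without rat 2003, and the spleen results with a term for the arrays with more blanks where it ended a call.

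Cells make cholesterol from acetyl-CoA through mevalonate, isoprenoids, squalene and lanosterol, and the liver is a main site of this synthesis. The transcription factor SREBP2, encoded by Srebf2, is carried by Scap from the endoplasmic reticulum when sterol is low and held back there by the Insig proteins when sterol is high. SREBP1, from Srebf1, and ChREBP, from Mlxipl, drive the genes that turn acetyl-CoA into saturated and unsaturated fatty acids.

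**Figure D1:**
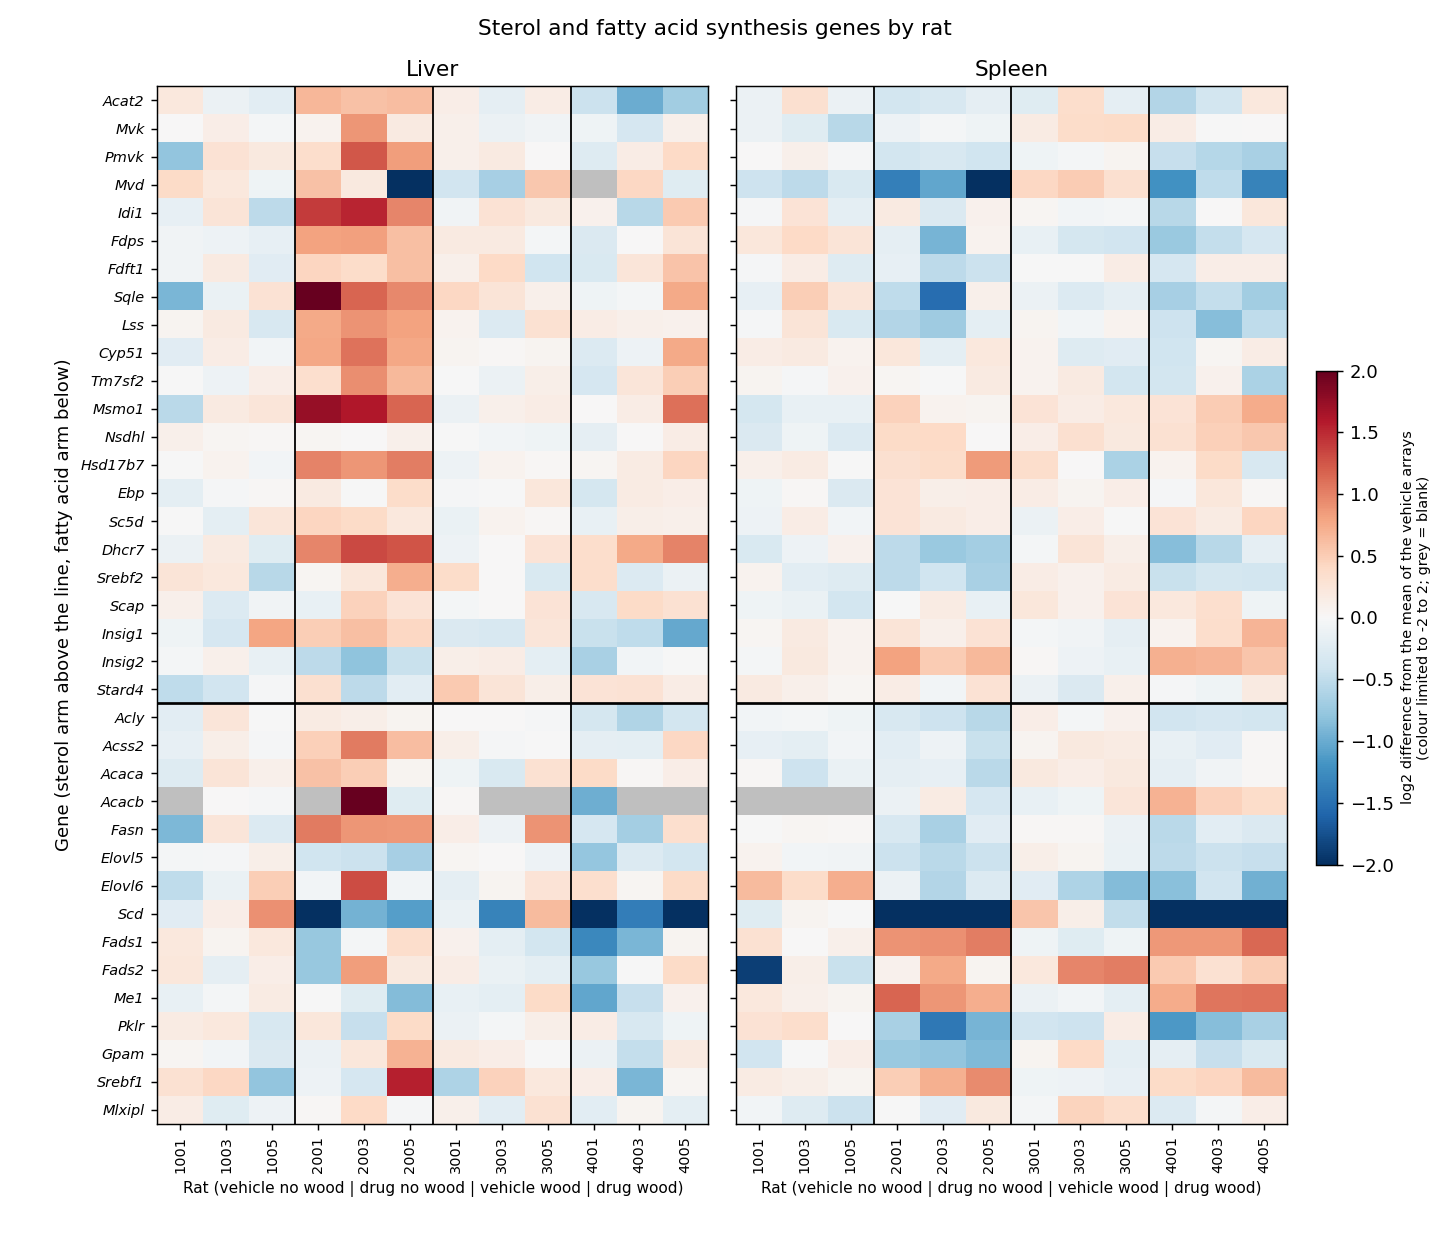
Each row is a member gene and each column an array, liver and spleen apart, coloured by the log2 difference from the mean of the 6 vehicle arrays of that organ, with colours limited to -2 and 2 and blanks in grey. In liver, most sterol enzymes lie above the vehicle mean in the 3 drug rats without wood, and in spleen, Scd is at the lower colour limit in all 6 drug rats.

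In liver, 2 enzymes of sterol synthesis rose with the drug, and most of the others had levels above vehicle in the rats without wood sticks. Of the 37 genes, 2 were called for the drug effect and both were higher, against 0.812% of the 12683 genes tested called and 0.166% called higher. These were Dhcr7, which encodes the last reductase on the way to cholesterol, and Hsd17b7, the 3-ketosteroid reductase of the demethylation steps. The median change over the 17 sterol enzymes was 0.39, with 15 of 17 above 0, beside a median of -0.02 over all genes. At an unadjusted p under 0.05, 13 of 37 members and 14.3% of all genes passed.

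Dhcr7 levels in vehicle livers were 9.25, 9.56 and 9.14 without wood and 9.27, 9.38 and 9.65 with wood, against 10.35, 10.69 and 10.64 in drug livers without wood and 9.72, 10.13 and 10.37 with wood. All 6 drug livers lay above all 6 vehicle livers. Dhcr7 rose by 0.94 ± 0.14 (SE, adjusted p = 0.0197), which is 1.92-fold. The call was lost without rat 1001, 3001 or 3003, with a highest adjusted p of 0.0578, and was kept without rat 2003.

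Hsd17b7 levels in vehicle livers were 7.38, 7.47 and 7.34 without wood and 7.29, 7.47 and 7.41 with wood, against 8.39, 8.28 and 8.41 in drug livers without wood and 7.44, 7.55 and 7.83 with wood. The 3 drug livers without wood stood above every other liver, and the lowest drug liver with wood lay within the vehicle range. Hsd17b7 rose by 0.59 ± 0.08 (adjusted p = 0.0187), and without wood by 0.96 ± 0.12 (adjusted p = 0.0161). The overall call was lost without rat 1001, 3001 or 3005, and the call without wood was lost without rat 1001, 1003, 1005 or 2001 (highest adjusted p = 0.0901). Both calls were kept without rat 2003. Averaging all probe sets of the gene gave an adjusted p of 0.368. Its second, dim probe set, at a mean level of 3.61, gave 3.80 ± 1.90.

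Msmo1, which encodes the C4-methylsterol oxidase, had levels of 7.65, 8.37 and 8.43 in vehicle livers without wood and 8.07, 8.30 and 8.34 with wood, against 9.93, 9.79 and 9.35 in drug livers without wood and 8.20, 8.34 and 9.30 with wood. Its change of 0.96 ± 0.22 did not pass (adjusted p = 0.0908). The drug livers without wood were clear of all vehicle livers, and with wood only the liver of rat 4005 was.

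Sqle, the squalene epoxidase that adds the oxygen needed for ring closure, had levels of 4.97, 5.74 and 6.17 in vehicle livers without wood and 6.29, 6.13 and 5.98 with wood, against 7.91, 7.04 and 6.84 in drug livers without wood and 5.79, 5.84 and 6.63 with wood. Its drug effect was 1.64 ± 0.37 without wood and -0.05 ± 0.37 with wood, and neither was called (adjusted p = 0.15 and 0.989). Idi1, the isopentenyl diphosphate isomerase, had levels of 9.43, 9.56 and 9.02 in drug livers without wood, above 7.52 to 8.29 in their vehicle group. With wood its drug livers, at 8.13, 7.49 and 8.56, overlapped vehicle livers at 7.97, 8.33 and 8.24.

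**Figure D2:**
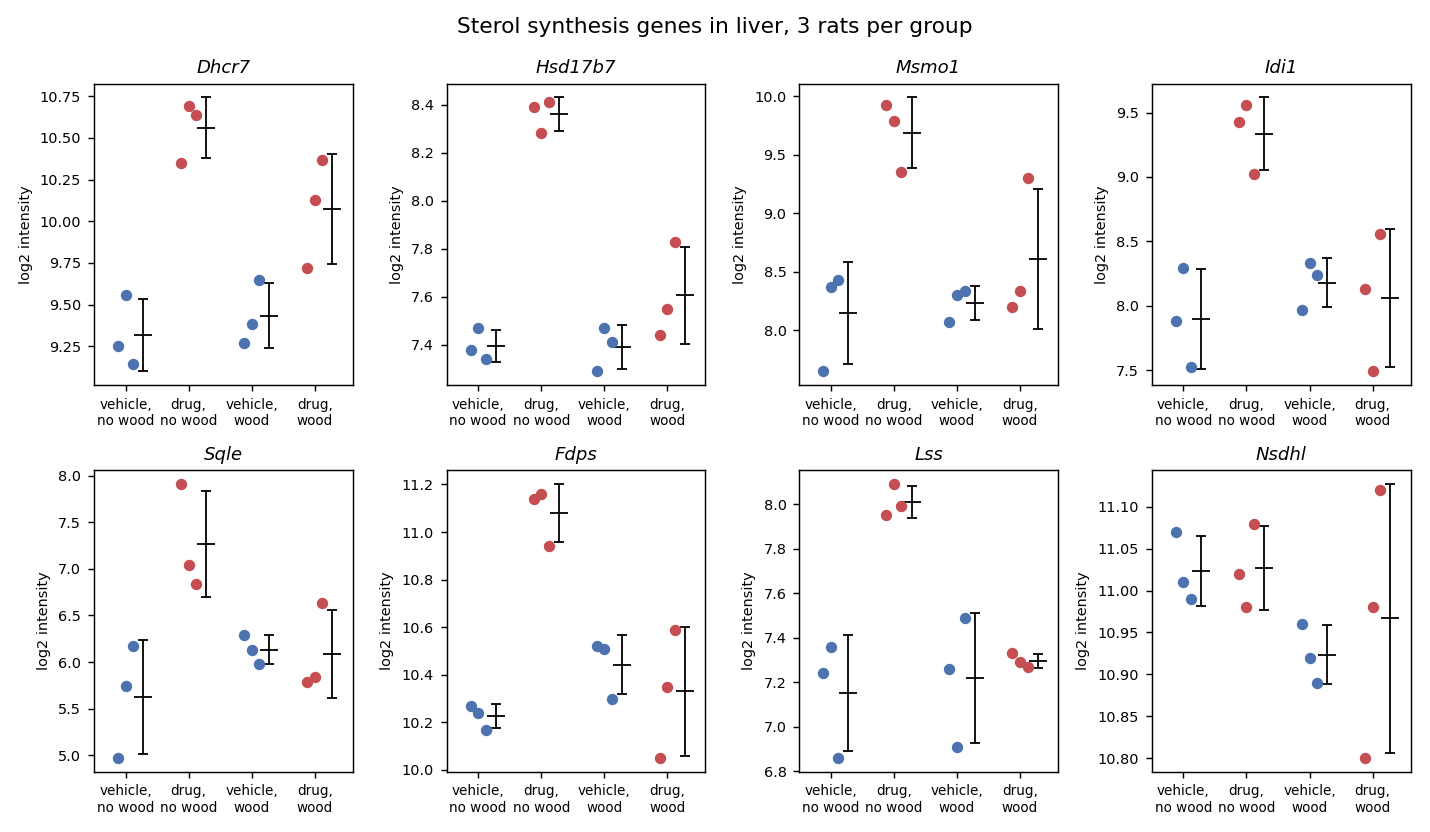
Log2 intensity of 8 sterol enzymes in liver, with a point for each rat, vehicle in blue, drug in red, without and with wood, and a bar for the mean ± SD (n = 3). Dhcr7 is the panel in which drug and vehicle points are apart in both housings, and Nsdhl is flat across the groups at 10.80 to 11.12.

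Without wood, all 3 drug livers lay above all 3 vehicle livers for 12 of 17 sterol enzymes, beside 7.03% of the 11074 genes with a value on every array compared. The 12 span the pathway: Acat2 and Pmvk before the isoprenoids, Idi1 and Fdps at the isoprenoid steps, Fdft1, Sqle and Lss from squalene to lanosterol, and Cyp51, Tm7sf2, Msmo1, Hsd17b7 and Dhcr7 after it. Leaving out the apart-standing array of rat 2003 gave 13 of 17, beside 12.5% of all genes. Leaving out any other rat of these groups gave 12 to 14, beside 10.1% to 13.4% of all genes. The fitted median over the 17 enzymes was 0.85 with 16 above 0, beside -0.02 over all genes. Hsd17b7 was the only member called in this contrast, beside 0.15% of all genes (0.0552% higher and 0.0946% lower), and 12 sterol enzymes had an unadjusted p under 0.05, beside 11.9%.

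With wood, Dhcr7 was the only one of 16 sterol enzymes with all drug livers above all vehicle livers, beside 7.51% of 11625 genes, and Acat2 had all drug livers below. Without rat 4001 the count was 5 of 17, beside 15.1% of all genes. The median over the 17 enzymes was 0.05, limma called 0 members and 0.0473% of all genes, and 5 members, beside 8.12% of genes, had an unadjusted p under 0.05. Dhcr7 gave 0.64 ± 0.19 (adjusted p = 0.394).

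Each liver can also be read by the median difference of its 17 sterol enzymes from the vehicle mean without wood. The drug livers without wood had medians of 0.70, 0.93 and 0.71. The vehicle livers with wood had 0.07, 0.07 and 0.11, and the drug livers with wood had -0.16, 0.15 and 0.43. The highest drug liver with wood, of rat 4005, was thus below the lowest drug liver without wood.

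The direct comparison of wood with no wood under drug gave the same ordering. It used the same 3 drug livers without wood, so it is not a separate reading. Among drug livers, all 3 with wood lay below all 3 without for 10 of 21 sterol genes and 3 of 14 fatty acid genes, beside 3.95% of 11010 genes, and 0 members had the opposite order, beside 6.51%. Without rat 2003 the counts were 11 of 21 and 4 of 14, beside 8.81% of genes, and without rat 4005 they were 16 of 21 and 4 of 14, beside 7.34%. The 10 were Acat2, Idi1, Fdps, Sqle, Lss, Cyp51, Msmo1, Hsd17b7, Sc5d and Insig1, and the 3 were Acly, Acss2 and Fasn. Acat2, the thiolase that joins acetyl-CoA units at the start of the pathway, showed it most clearly with 7.70, 7.62 and 7.65 without wood and 6.60, 6.04 and 6.34 with wood. Its vehicle livers, at 6.83 to 7.25, lay between them.

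None of these wood differences was called by limma after adjustment. Acat2 gave -1.33 ± 0.17 (adjusted p = 0.0919), and 0 of 37 members and 0% of 12683 genes were called for wood under drug. At an unadjusted p under 0.05 the counts were 17 of 37 members and 7.76% of genes. For the drug-by-wood interaction, which tests whether the drug effect differs between housings, 0 members and 0% of genes were called, with 12 members and 5.12% of genes at an unadjusted p under 0.05. In vehicle livers 0 members were called for wood, beside 0% of genes, and 1 member, Stard4, had an unadjusted p under 0.05, beside 3.82%.

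The promoters of sterol genes are known to combine sterol regulatory elements with CCAAT boxes bound by NF-Y, and the 250 bases before the RefSeq start (GRCr8 assembly) of 30 members with an entry were searched on both strands. The sterol regulatory element core TCACNCCAC was found in 0 of 30 windows and in 1.09% of 27457 genes. CCAAT was found in 22 of 30 members (73.3%) and in 11 of 14 sterol enzymes (78.6%), beside 36.1% of all genes and 36.4% of array genes. Of the 14 sterol enzymes, 7 (50%) held at least 2, beside 12% of array genes. The GC box GGGCGG was found in 12 of 14 sterol enzymes (85.7%), beside 55.3% of array genes, and the E box CACGTG in 4 of 30 members (13.3%), beside 8.2%. Of the 9 sterol enzymes with an entry among the 12 above, 6 held a CCAAT, as did 5 of the other 5. These matches describe letters in a window, and no binding was measured. The windows of both called liver genes, of Msmo1 and Idi1, of Nsdhl, whose liver level was flat, and of Scd, the member with the largest spleen change, are shown 5′ to 3′ on the gene's strand, with CCAAT or its reverse complement ATTGG in capitals.
Dhcr7, chr1:208444184-208444433, plus strand: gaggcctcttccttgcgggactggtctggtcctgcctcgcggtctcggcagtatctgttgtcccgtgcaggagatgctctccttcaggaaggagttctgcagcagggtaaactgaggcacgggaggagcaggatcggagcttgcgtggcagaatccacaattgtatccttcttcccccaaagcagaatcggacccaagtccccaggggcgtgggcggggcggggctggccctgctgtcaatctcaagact
Hsd17b7, chr13:84722755-84723004, minus strand: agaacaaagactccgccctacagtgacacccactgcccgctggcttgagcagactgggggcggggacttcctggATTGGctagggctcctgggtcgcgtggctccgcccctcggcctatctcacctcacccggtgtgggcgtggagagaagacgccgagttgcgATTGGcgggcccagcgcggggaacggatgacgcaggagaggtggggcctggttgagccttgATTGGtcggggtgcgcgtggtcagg
Msmo1, chr16:29746863-29747112, plus strand: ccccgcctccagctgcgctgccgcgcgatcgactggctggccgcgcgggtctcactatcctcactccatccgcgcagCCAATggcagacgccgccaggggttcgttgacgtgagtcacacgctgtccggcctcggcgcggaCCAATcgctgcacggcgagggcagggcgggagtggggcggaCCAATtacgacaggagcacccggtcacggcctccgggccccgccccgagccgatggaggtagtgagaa
Idi1, chr17:66547525-66547774, minus strand: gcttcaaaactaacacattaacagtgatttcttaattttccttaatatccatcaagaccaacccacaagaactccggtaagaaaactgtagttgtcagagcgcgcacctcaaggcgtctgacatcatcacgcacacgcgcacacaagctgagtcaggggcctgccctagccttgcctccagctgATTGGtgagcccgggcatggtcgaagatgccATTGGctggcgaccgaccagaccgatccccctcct
Nsdhl, chrX:155817110-155817359, plus strand: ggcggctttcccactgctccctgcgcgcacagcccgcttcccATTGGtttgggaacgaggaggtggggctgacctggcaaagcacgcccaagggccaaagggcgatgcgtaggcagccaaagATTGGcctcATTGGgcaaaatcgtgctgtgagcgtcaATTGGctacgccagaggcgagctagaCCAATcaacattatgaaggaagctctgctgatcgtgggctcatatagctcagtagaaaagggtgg
Scd, chr1:253231732-253231981, minus strand: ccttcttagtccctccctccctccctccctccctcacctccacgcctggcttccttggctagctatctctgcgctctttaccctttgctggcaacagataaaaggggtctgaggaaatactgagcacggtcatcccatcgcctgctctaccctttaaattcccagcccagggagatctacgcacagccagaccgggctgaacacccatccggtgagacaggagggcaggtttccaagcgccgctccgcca
Nsdhl held 5 matches, Hsd17b7 and Msmo1 held 3 each and Idi1 held 2. Dhcr7 and Scd held none.

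The remaining sterol enzymes of the liver did not pass. The drug effect was 0.46 ± 0.12 for the lanosterol synthase Lss, 0.50 ± 0.17 for the lanosterol demethylase Cyp51, 0.37 ± 0.10 for the farnesyl diphosphate synthase Fdps and 0.39 ± 0.15 for the sterol reductase Tm7sf2. Pmvk, which phosphorylates phosphomevalonate, gave 0.45 ± 0.22, and the squalene synthase Fdft1 gave 0.32 ± 0.18. Sc5d, Mvk, Ebp, Nsdhl, Acat2 and Mvd ranged from 0.18 down to -0.24, and Mvd, the mevalonate diphosphate decarboxylase, was blank in the liver of rat 4001.

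None of the regulators was called in liver. Insig2, which encodes an anchor that holds the SREBP carrier in the endoplasmic reticulum, had levels of 12.30, 12.44 and 12.18 in vehicle livers without wood and 12.45, 12.48 and 12.14 with wood, against 11.81, 11.53 and 11.89 in drug livers without wood and 11.68, 12.28 and 12.32 with wood, and a drug effect of -0.41 ± 0.13 (adjusted p = 0.207). The drug livers without wood were below their vehicle group, and those with wood overlapped theirs. Insig1, itself a target of SREBP2, had 11.33, 11.43 and 11.25 in drug livers without wood and 10.38, 10.32 and 9.81 with wood, around vehicle values of 10.49 to 11.62 without wood and 10.51 to 11.07 with wood. Insig1 differed from most sterol enzymes in that its drug livers without wood lay inside the vehicle range. The drug effect was 0.15 ± 0.20 for Srebf2, 0.16 ± 0.16 for Scap, 0.05 ± 0.15 for the sterol carrier Stard4, 0.06 ± 0.39 for Srebf1 and 0.01 ± 0.12 for Mlxipl.

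In liver, no gene of the fatty acid arm passed the test for the drug effect. Limma called 0 of its 15 genes, beside 0.812% of all genes, with 3 at an unadjusted p under 0.05, and the median over the arm was 0.01. Without wood the median was 0.20 and with wood -0.27. Scd, the stearoyl-CoA desaturase that makes oleate, had levels of 8.54, 8.91 and 9.68 in vehicle livers without wood and 8.64, 7.44 and 9.41 with wood, against 6.29, 7.83 and 7.67 in drug livers without wood and 5.46, 7.38 and 6.51 with wood. Drug livers lay below vehicle livers within each housing, but the vehicle liver at 7.44 lay inside the drug range without wood. The difference of -1.91 ± 0.46 did not pass (adjusted p = 0.102). Scd passed in 2 of 10 other settings of the processing (lowest adjusted p = 0.0425) and in 0 of 12 refits that left out a rat.

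Elovl5, which elongates polyunsaturated fatty acids, had levels of 12.30, 12.32 and 12.46 in vehicle livers without wood and 12.37, 12.35 and 12.23 with wood, against 11.94, 11.91 and 11.67 in drug livers without wood and 11.56, 12.06 and 11.97 with wood. All 6 drug livers lay below all 6 vehicle livers, and the difference of -0.49 ± 0.10 did not pass (adjusted p = 0.0657). Elovl5 passed in 5 of 10 other settings of the processing (lowest adjusted p = 0.0176) and in 0 of 12 refits that left out a rat. Scd and Elovl5 were the members with drug below vehicle in both housings, and Dhcr7 the member above in both, beside 2.74% and 1.61% of 10799 genes.

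Fasn, the fatty acid synthase, had levels of 7.77, 7.61 and 7.60 in drug livers without wood, above 5.83, 6.97 and 6.46 in vehicle livers. With wood, its drug livers at 6.39, 6.05 and 7.06 overlapped vehicle livers at 6.86, 6.63 and 7.63. The Fasn drug effect over both housings was 0.35 ± 0.25, and its second, dimmer probe set, at a mean level of 4.86, gave -0.02 ± 0.46. Acss2, which makes acetyl-CoA from acetate, also had drug above vehicle without wood, at 9.36, 9.93 and 9.51 against 8.72, 9.01 and 8.86. Acly, the citrate lyase, showed its drug livers below the others with wood, at 8.89, 8.64 and 8.87 against 9.25, 9.24 and 9.21. These 3 enzymes of acetyl-CoA supply and chain synthesis thus shared the lower values with wood under drug that the sterol enzymes had.

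Among the other fatty acid enzymes, the malic enzyme Me1 gave -0.43 ± 0.22 and the desaturase Fads1 gave -0.43 ± 0.25 for the liver drug effect. Acaca, the cytosolic acetyl-CoA carboxylase, gave 0.27 ± 0.15, and the elongase Elovl6 gave 0.33 ± 0.26. Fads2, Pklr and Gpam were within 0.06 of 0. Acacb, the mitochondrial acetyl-CoA carboxylase, had a value on only 6 of 12 liver arrays and gave 0.11 ± 0.95.

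**Figure D3:**
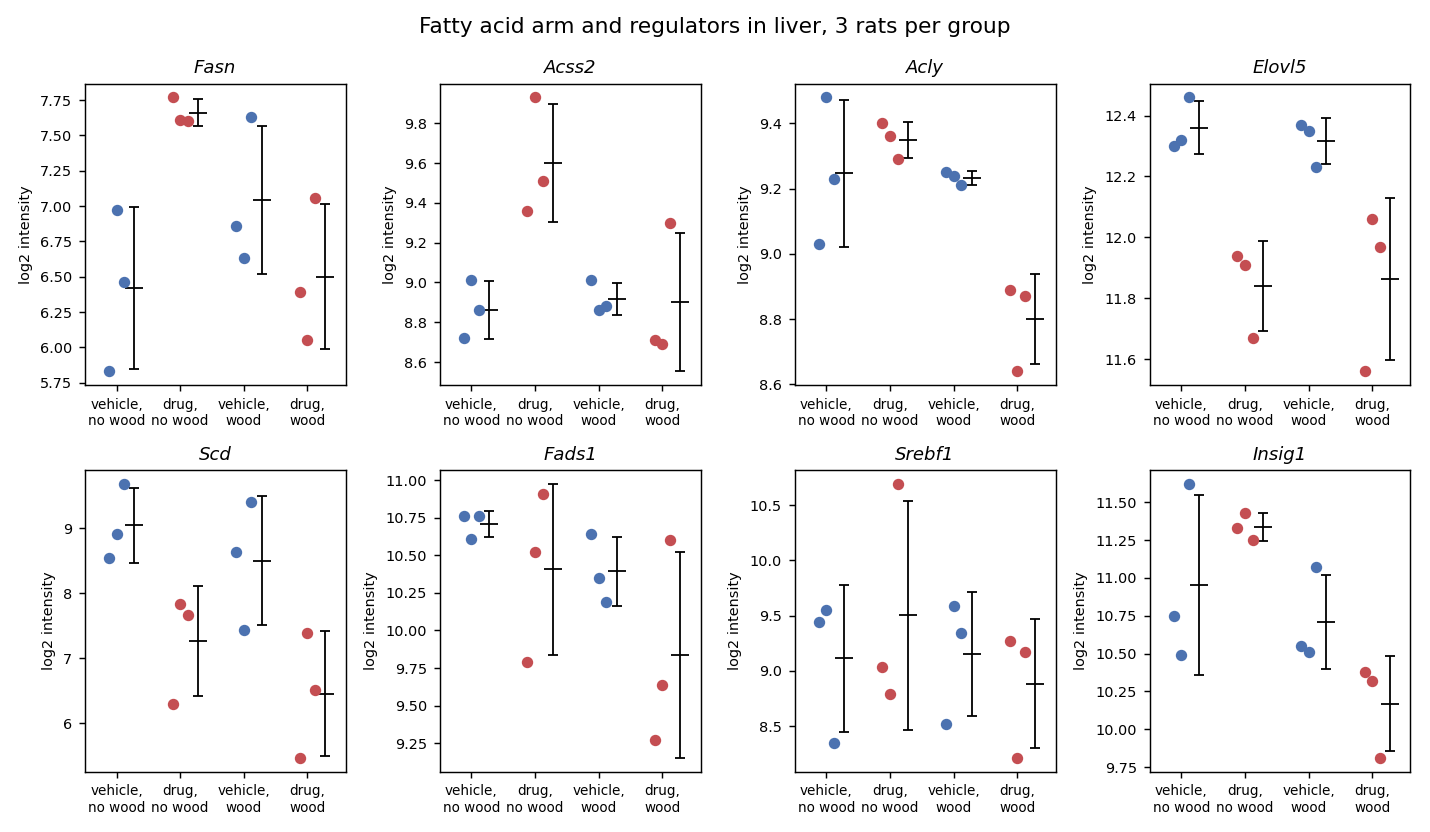
Log2 intensity of 8 fatty acid and regulatory genes in liver, with a point for each rat, vehicle in blue, drug in red, and a bar for the mean ± SD (n = 3). Elovl5 and Scd are lower with drug in both housings, Fasn and Acss2 are higher with drug in the rats without wood, and Srebf1 overlaps throughout.

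The variation of members within groups was described by correlation. After subtraction of the group means, the Pearson correlation of a sterol gene with the median of the other sterol genes over the 12 livers had a median of 0.51, with 11 of 21 above 0.5, and reached 0.88 for Cyp51 and 0.80 for Dhcr7. Insig1 gave -0.50 and Acat2 gave -0.42. The sterol median was 0.53 without rat 2003, but 0.28 without rat 4001 and 0.24 without rat 4005, with 6 and 2 of 21 above 0.5, so it rests largely on those drug livers with wood. In the fatty acid arm the median was 0.24, with 2 of 14 above 0.5, and 0.01 without rat 4005. In spleen the medians were 0.33 in each arm, with 7 of 22 sterol and 4 of 14 fatty acid genes above 0.5. The points share an array and its scaling, so these are descriptions.

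In drug-treated livers the lists around the pathway held 0 or 1 called genes each, beside 0.812% of all genes called and 14.3% at an unadjusted p under 0.05. Of 15 further sterol genes, 0 were called by limma, with 2 at an unadjusted p under 0.05, and Lbr, a sterol reductase of the nuclear envelope, gave 0.63 ± 0.15 (adjusted p = 0.103). Of 12 targets of the oxysterol receptor LXR and efflux genes, 1 was called: Pltp, the phospholipid transfer protein, fell by 1.20 ± 0.21 (adjusted p = 0.0365). Of 22 further lipogenic genes 0 were called, with 2 at an unadjusted p under 0.05, and Txnip, a ChREBP target, gave -0.60 ± 0.12 (adjusted p = 0.0508). Of 11 genes of fasting and fatty acid oxidation 0 were called, with 7 at an unadjusted p under 0.05 and a median of -0.33. Fgf21, a fasting hormone of the liver, gave -2.61 ± 0.61 (adjusted p = 0.0908), and Angptl4, an inhibitor of lipoprotein lipase, gave -1.08 ± 0.27 (adjusted p = 0.112).

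Markers of other cells differed in these livers too. The red cell precursor marker Alas2 fell by 3.28 ± 0.15 (adjusted p = 1.14e-05), the only one of 5 such markers tested that was called, and their summed intensity was 468 to 761 in vehicle livers and 218 to 277 in drug livers. The adipocyte marker Cfd fell by 1.24 ± 0.08 (adjusted p = 0.000101), the only one of 6 tested that was called. These 6 markers had a median of -0.05, with 3 above 0. Of 8 macrophage markers 3 were called, all lower: C1qa by 0.96, Adgre1 by 0.94 and Csf1r by 0.92, each as a fall on the log2 scale. Their summed intensity was 4030 to 4870 and 4280 to 4950 in vehicle livers without and with wood, and 2370 to 2930 and 2060 to 3360 in drug livers. Of the 10 hepatocyte markers 0 were called by limma, with 1 at an unadjusted p under 0.05 and a median of 0.01. These counts stand beside 0.812% of all genes called. The part of these markers' cells in the liver results was not tested. In whole organs, fewer cells of a type and less RNA per cell cannot be told apart.

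In spleen, the drug changed the genes of both arms in both directions, with the desaturase Scd falling 15.3-fold to dim levels. Of 36 members tested, 22 were called, 8 higher and 14 lower, which is close to the 55% of 13614 genes called (26.9% higher and 28.1% lower). In the sterol arm 5 of 22 genes were higher and 7 lower, and in the fatty acid arm 3 of 14 were higher and 7 lower. Acacb was not tested, since it was blank in all vehicle spleens without wood. Without wood 19 members were called, 7 higher and 12 lower, beside 45.1% of genes (22.7% higher and 22.4% lower). With the term for arrays with more blanks, the count without wood was 12. With wood 14 were called, 5 higher and 9 lower, beside 38.4% of genes (19.9% higher and 18.5% lower). At an unadjusted p under 0.05 the counts were 23 members and 60% of genes over both housings, 22 and 53.1% without wood, and 18 and 46.7% with wood. In both housings, all drug spleens lay above the vehicle spleens for 4 of 36 members and below for 9. These counts stand beside 19.4% and 19.6% of 12837 genes. Within a housing the shares were 25.2% to 28.1% of genes per direction, so separation of the groups was common in spleen.

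Scd levels in vehicle spleens were 8.09, 8.39 and 8.32 without wood and 8.88, 8.45 and 7.84 with wood, against 4.45, 3.89 and 5.35 in drug spleens without wood and 3.56, 4.49 and 4.62 with wood. The lowest vehicle spleen was far above the highest drug spleen. Scd fell by 3.94 ± 0.28 (adjusted p = 3.07e-06). Its geometric mean intensity in drug spleens was 23.6 without wood and 18.7 with wood, beside array medians of 113 to 121 in spleen. The size of the fall thus rests on dim values.

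Fads1, the delta-5 desaturase of polyunsaturated fatty acids, rose by 0.95 ± 0.08 (adjusted p = 6.2e-06). Its vehicle spleens had 10.77, 10.48 and 10.57 without wood and 10.39, 10.22 and 10.38 with wood, and its drug spleens had 11.36, 11.39 and 11.49 without wood and 11.34, 11.34 and 11.62 with wood. No drug spleen overlapped a vehicle spleen. Me1, which supplies NADPH for synthesis, rose by 0.95 ± 0.09 (adjusted p = 1.76e-05), from 7.16 to 7.58 in vehicle spleens to 8.09 to 8.52 in drug spleens, again without overlap. Its second probe set gave 1.46 ± 0.15 (adjusted p = 3.59e-05).

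Pklr, the liver and red cell pyruvate kinase, fell by 0.94 ± 0.16 (adjusted p = 0.000686), with means of 6.87 ± 0.18 and 5.65 ± 0.39 (SD, n = 3) in vehicle and drug spleens without wood, and 6.44 ± 0.32 and 5.77 ± 0.25 in those with wood, and no drug spleen as high as a vehicle spleen. Its second probe set rose by 1.04 ± 0.11 (adjusted p = 0.000328), so the probe sets of Pklr disagreed in direction. Gpam, the first acyltransferase of glycerolipid synthesis, fell by 0.56 ± 0.12 (adjusted p = 0.00278), with vehicle and drug means of 6.15 ± 0.26 and 5.43 ± 0.08 without wood, and 6.32 ± 0.29 and 5.93 ± 0.15 with wood. The Gpam groups were apart without wood, and with wood the highest drug spleen passed the lowest vehicle spleen.

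Acly fell by 0.40 ± 0.06 (adjusted p = 0.000266), with vehicle spleens at 10.40, 10.43 and 10.37 without wood and 10.59, 10.43 and 10.55 with wood, and drug spleens at 10.14, 10.04 and 9.90 without wood and 10.08, 10.13 and 10.10 with wood. Elovl5 fell by 0.47 ± 0.06 (adjusted p = 0.00012), from 11.25 to 11.50 in vehicle spleens to 10.84 to 10.96 in drug spleens, while its second probe set gave 0.29 ± 0.14 (adjusted p = 0.106). Neither gene's groups overlapped. Fasn fell by 0.37 ± 0.09 (adjusted p = 0.00528), and its second probe set by 1.01 ± 0.13 (adjusted p = 0.000167). Elovl6 fell by 0.52 ± 0.15 (adjusted p = 0.0124), with vehicle and drug means of 6.94 ± 0.18 and 6.05 ± 0.24 (SD, n = 3) without wood, and 5.80 ± 0.33 and 5.65 ± 0.30 with wood. The Elovl6 groups were apart without wood and overlapped with wood, and a term for the spleen arrays with more blanks gave an adjusted p of 0.0529. The second probe set of Elovl6 fell by 1.40 ± 0.12 (adjusted p = 1.16e-05).

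Among sterol enzymes, Mvd, the decarboxylase that yields isopentenyl diphosphate, fell by 1.30 ± 0.22 (adjusted p = 0.000645). Its vehicle spleens had 7.33, 7.23 and 7.44 without wood and 8.17, 8.25 and 8.07 with wood, and its drug spleens had 6.38, 6.71 and 5.39 without wood and 6.54, 7.24 and 6.41 with wood. Drug lay below vehicle in both housings. Dhcr7, higher in drug livers, fell in spleen by 0.59 ± 0.12 (adjusted p = 0.00199), from 7.55, 7.76 and 7.94 to 7.33, 7.11 and 7.18 without wood and from 7.81, 8.11 and 7.97 to 7.01, 7.30 and 7.67 with wood. No drug spleen reached the vehicle spleens of its housing.

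Pmvk fell by 0.47 ± 0.06 (adjusted p = 6.99e-05), from 7.85 to 8.03 in vehicle spleens to 7.28 to 7.61 in drug spleens. Lss fell by 0.54 ± 0.13 (adjusted p = 0.00453), with drug spleens at 6.98, 6.86, 7.38, 7.16, 6.71 and 7.06 and vehicle spleens at 7.26 to 7.82, so that 1 drug spleen, at 7.38, lay inside the vehicle range. Sqle fell by 0.63 ± 0.24 (adjusted p = 0.0449) and Fdps by 0.43 ± 0.16 (adjusted p = 0.0384). Sqle ranged from 5.29 to 6.91 in drug spleens and from 6.54 to 7.31 in vehicle spleens. The calls of Sqle and Fdps were lost with the term for arrays with more blanks (adjusted p = 0.35 and 0.278), and in 9 and 8 of the 12 refits that left out a rat.

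Of the enzymes of sterol demethylation, Msmo1 and Nsdhl rose in spleen, while Cyp51 and Hsd17b7 were not called. Msmo1 rose by 0.35 ± 0.10 (adjusted p = 0.015), with vehicle spleens at 8.45, 8.65 and 8.66 without wood and 9.08, 8.95 and 9.02 with wood, and drug spleens at 9.26, 8.87 and 8.85 without wood and 9.07, 9.31 and 9.54 with wood. Nsdhl, which works beside it, rose by 0.35 ± 0.09 (adjusted p = 0.00547), with vehicle spleens at 8.14, 8.34 and 8.16 without wood and 8.56, 8.74 and 8.62 with wood, and drug spleens at 8.81, 8.83 and 8.44 without wood and 8.73, 8.91 and 8.97 with wood. For both genes vehicle spleens with wood lay near the drug spleens. The second probe set of Nsdhl gave -0.03 ± 0.09 (adjusted p = 0.816). Sc5d, the lathosterol oxidase, rose by 0.25 ± 0.08 (adjusted p = 0.0192), from 7.48 to 7.75 in vehicle spleens to 7.73 to 8.04 in drug spleens. With the term for arrays with more blanks, Msmo1 and Sc5d were no longer called (adjusted p = 0.092 and 0.0919), and the mean of all probe sets of Sc5d gave -0.02. The other sterol enzymes, Acat2, Mvk, Idi1, Fdft1, Cyp51, Tm7sf2, Hsd17b7 and Ebp, were not called, and Hsd17b7's second probe set fell by 0.93 ± 0.18 (adjusted p = 0.00201) where the first gave 0.28 ± 0.18.

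The regulators split in spleen. Insig2 rose by 0.65 ± 0.07 (adjusted p = 4.08e-05), with vehicle spleens at 7.51, 7.74 and 7.62 without wood and 7.58, 7.45 and 7.41 with wood, and drug spleens at 8.35, 8.06 and 8.20 without wood and 8.27, 8.23 and 8.10 with wood. Srebf1 rose by 0.60 ± 0.08 (adjusted p = 0.000175), from 8.36 to 8.69 in vehicle spleens to 8.90 to 9.46 in drug spleens. Both were without overlap, and their second probe sets rose by 0.78 ± 0.09 and 0.76 ± 0.09.

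Srebf2 fell by 0.45 ± 0.07 (adjusted p = 0.000461), from 9.71 to 10.13 in vehicle spleens to 9.32 to 9.61 in drug spleens. Its second probe set, dim in spleen at a mean level of 4.02, gave 0.89 ± 0.53, and the mean of both gave 0.22, the opposite sign. Insig1 rose by 0.29 ± 0.10 (adjusted p = 0.0266), with vehicle spleens at 8.91, 9.06 and 8.94 without wood and 8.84, 8.80 and 8.70 with wood, and drug spleens at 9.14, 8.97 and 9.16 without wood and 8.95, 9.23 and 9.55 with wood. The Insig1 groups overlapped without wood, and its call was lost without rat 1001, 1005, 2001 or 3005. Scap gave 0.08, Stard4 gave 0.07 and Mlxipl gave -0.04 for the spleen drug effect, none of them called. A second probe set of Stard4 rose by 0.51 ± 0.10 (adjusted p = 0.00241). Averaging all probe sets of a gene also ended the spleen calls of Lss, Nsdhl, Elovl5 and Pklr.

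**Figure D4:**
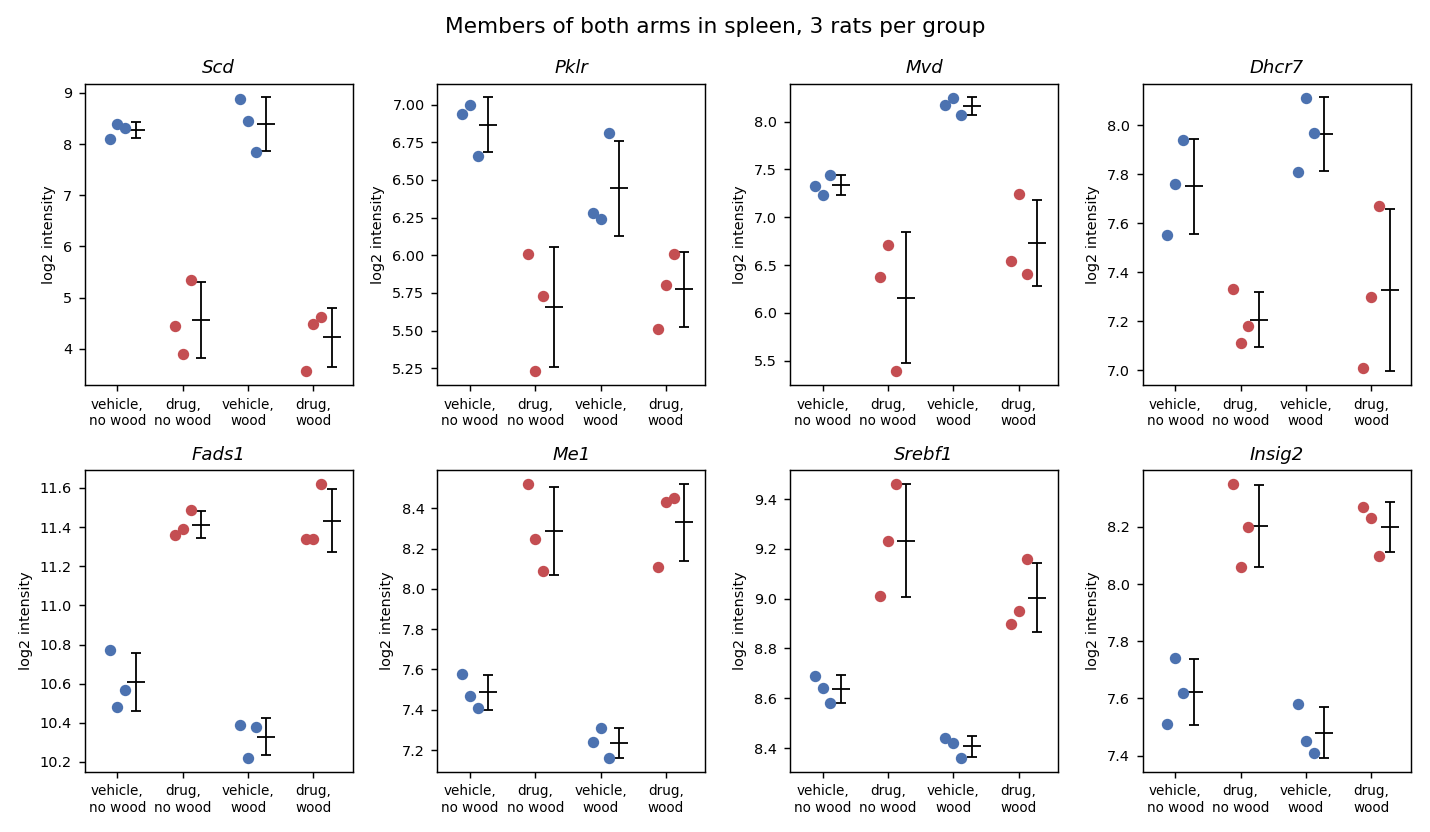
Log2 intensity of 8 members in spleen, with a point for each rat, vehicle in blue, drug in red, without and with wood, and a bar for the mean ± SD (n = 3). Scd shows the widest gap, and Fads1, Me1, Srebf1 and Insig2 are higher in every drug spleen than in any vehicle spleen.

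Counts in the lists around the pathway are read beside the 55% of all genes called in spleen, 26.9% higher and 28.1% lower. Of 12 LXR targets and efflux genes, 9 rose and 0 fell, with a median of 0.48. Pltp rose by 1.51 ± 0.24 (adjusted p = 0.000415), Nr1h3, which encodes LXR alpha itself, by 1.04 ± 0.08 (adjusted p = 3.74e-06), and the cholesterol exporter Abca1 by 0.94 ± 0.25 (adjusted p = 0.0107). Of 15 further sterol genes, 7 rose and 4 fell, among them the lysosomal sterol handlers Npc2, up by 0.80, and Lipa, up by 0.58, and the acetoacetyl-CoA synthetase Aacs, which fell by 0.84. Of 22 further lipogenic genes 9 rose and 3 fell, with a median of -0.03. The largest called change was that of Lpin2, at -1.24 ± 0.20 (adjusted p = 0.000432), and Agpat2 and Idh1 rose by 1.15 and 1.08. Of 11 genes of fasting and fatty acid oxidation 6 rose and 2 fell, with Cpt2, Pdk4 and Angptl4 up by 1.57, 1.46 and 1.12.

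Markers of cell types shifted in the same spleens, and their counts stand beside 55% of all genes called (26.9% higher and 28.1% lower). All 4 B cell markers fell, with a median of -4.53, and their summed intensity went from 12000 to 13500 in vehicle spleens without wood to 1540 to 1880 with drug. All 6 red cell precursor markers fell, with a median of -5.45, and all 8 dividing cell markers fell, with a median of -1.87. All 8 macrophage markers rose, with a median of 1.05, from a summed intensity of 17100 to 21000 to one of 34800 to 38800 without wood, and 7 of 8 stroma markers rose, with a median of 1.24. Of 8 adipocyte markers 2 rose and 2 fell. In the drug group without wood the summed exocrine pancreas markers reached from 778 to 17300, against 331 to 837 in vehicle. The part of these shifts in the spleen results of the members was not tested. As in liver, a change in cell number and a change in RNA per cell cannot be told apart.

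Wood sticks alone were followed by calls of 3 members in vehicle spleens, 2 higher and 1 lower, beside 15.1% of genes (7.48% higher and 7.64% lower). At an unadjusted p under 0.05 there were 13 members and 34% of genes. Mvk, the mevalonate kinase, was higher with wood by 0.61 ± 0.12 (adjusted p = 0.0119), at 7.79 to 8.02 against 7.08 to 7.51. Nsdhl was higher by 0.42 ± 0.12 (adjusted p = 0.0432), and Elovl6 fell by 1.14 ± 0.21 (adjusted p = 0.00996). All vehicle spleens with wood lay above all those without for 12 of 36 members and below for 6. The shares of 13055 genes were 19.4% and 23.3%. Mvk, Nsdhl and Elovl6 were among these members. With the term for arrays with more blanks, none was called (adjusted p = 0.352, 0.976 and 0.347), Nsdhl lost its call in 8 of 12 refits that left out a rat, and that split and wood can hardly be told apart here. Under drug, limma called 0 members for wood, beside 0% of genes, with 2 of 36 at an unadjusted p under 0.05, beside 8.62% of genes. For the interaction it called 0 members, beside 0.705% of genes, with 3 of 36 at an unadjusted p under 0.05, beside 13% of genes.

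The drug effect differed between the organs for 17 of 36 members, 13 with the higher effect in liver and 4 with the lower, beside 33.1% of 12474 genes (14.7% higher and 18.4% lower). Dhcr7 gave the smallest adjusted p, with an effect in liver that was 1.53 ± 0.18 above that in spleen (adjusted p = 6.59e-06). Sqle followed in size among the sterol enzymes with 1.42 ± 0.36 (adjusted p = 0.00568), then Lss with 1.01 (adjusted p = 0.000248), Pmvk with 0.92 and Fdps with 0.80. With the mean of all probe sets the calls of Lss (adjusted p = 0.405) and Pklr (adjusted p = 0.502) were lost, as were those of Nsdhl and Fasn. Scd was lower with drug in each organ's values, and its effect in liver was 2.02 ± 0.56 above that in spleen (adjusted p = 0.00941).

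The 4 members with the lower effect in liver were Fads1, Me1, Insig2 and Nsdhl. Fads1 gave -1.38 ± 0.27 (adjusted p = 0.000646) and Me1 gave -1.37 ± 0.24 (adjusted p = 0.000292), with rises in spleen and uncalled values below 0 in liver. Insig2 gave -1.06 ± 0.15 (adjusted p = 3.59e-05), rising in spleen with an uncalled -0.41 in liver. Hsd17b7, called in liver, did not pass for the difference (0.31 ± 0.21, adjusted p = 0.27), nor did Msmo1 (0.61 ± 0.25, adjusted p = 0.071).

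**Figure D5:**
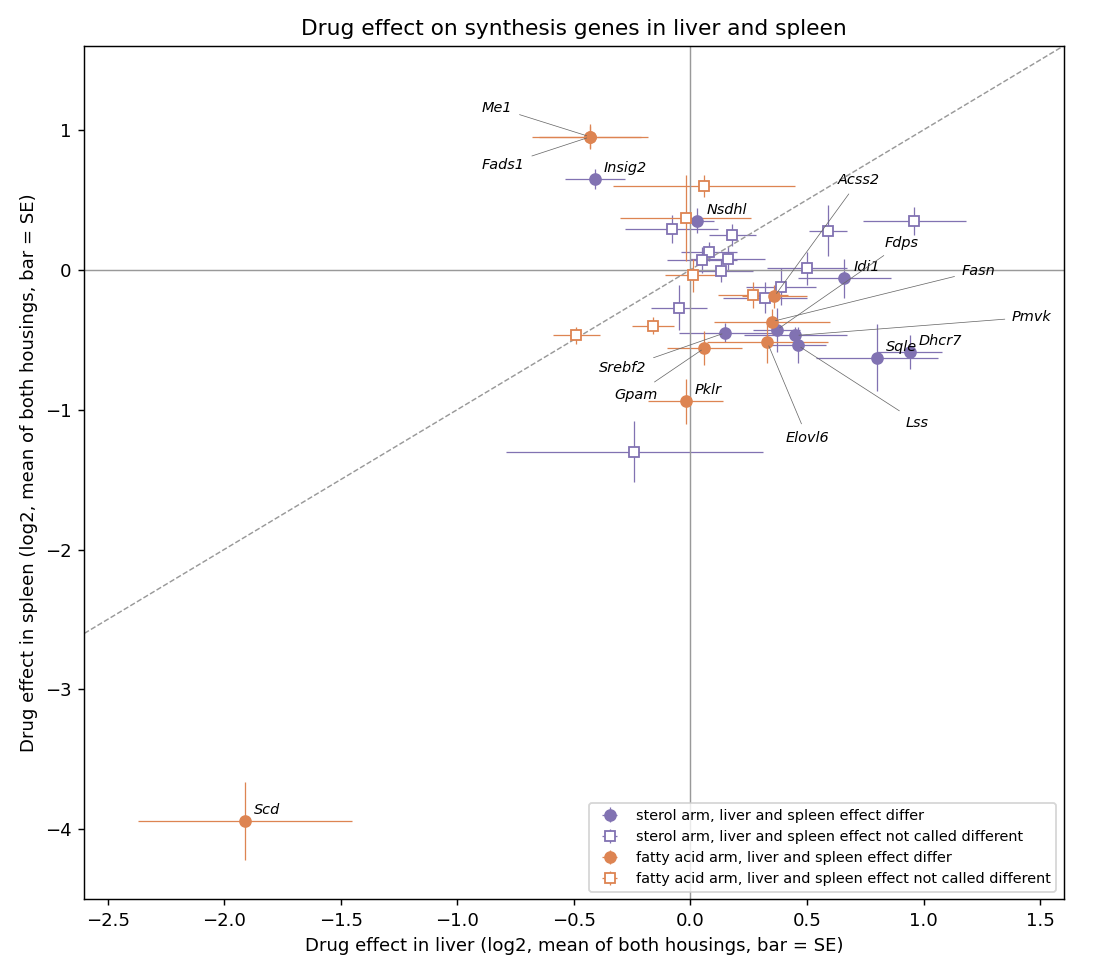
Drug effect in liver (horizontal, log2) against drug effect in spleen (vertical, log2) for 36 members, with bars of 1 SE, filled points where the difference between the organs was called, and a dashed line of equal effect. Dhcr7 and Sqle lie right of the line with a positive liver and a negative spleen effect, Fads1, Me1 and Insig2 lie in the opposite quadrant, and Scd is lowest in spleen.

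In vehicle rats, 31 of 36 members differed in level between the organs, 17 higher and 14 lower in liver, beside 79.5% of genes (20.2% higher and 59.2% lower) and a median of -0.72 over all genes. Insig2 was 4.78 ± 0.11 higher in liver (27.4-fold), Tm7sf2 was 3.55 higher, Fads2 3.27, Sc5d 2.81 and Nsdhl 2.54. Fasn was lower in liver by -2.52 on the log2 scale and Mvd by -1.74. Quantile scaling, which moved the median of all genes by 0.42, gave 20 higher and 8 lower, and median centring, which moved it by 0.59, gave 23 and 8. Under each of these scalings 3 called members changed sign, so small differences between the organs depend on the scaling.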

How the data were processed

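Liver and spleen of 12 rats were profiled on 24 Affymetrix rat arrays. The deposited values per probe set are, by their range, intensities on a log10 scale. The base is an inference: without the lowest and highest 1%, the values span 2143-fold as log10 and 10.1-fold as log2. Probe summarisation and scaling were not given in the sources used here. After conversion to log2, 77831 of 743520 cells (10.5%) stayed missing, as deposited blank. Of 30980 probe sets, 20792 named a single gene in the platform annotation, 436 several and 9752 none. The design had allowed for log values of another base.

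Changes were fitted with limma 3.58.1 (R 4.3.3; lmFit, contrasts.fit, eBayes) on group means over the 12 arrays of an organ, or over 24 arrays and 8 groups between organs, for genes with at least 1 value in each group. The script was tested on simulated data. Promoters were searched in Python 3.11.15. The members and lists were chosen with earlier results of these data known. Values by array, or as group means, are given for up to 6 called members per organ, arm and direction by size of the drug effect, for the 3 largest where fewer than 3 were called, for members called for wood and for the regulators. Other members whose groups did not overlap were picked after their values were seen. For other lists, up to 4 called genes are named, or up to 2 where none was called. The genes named were not always those with the largest change in their list. Liver and spleen of a number come from the same rat, per the labels. Their deviations from the group means correlated at -0.067 to 0.162, over 0.1 for 2 of 12 rats. Alternatives were another scaling, offset, filter and probe set rule, other limma options, a term for spleen arrays with over 1500 blanks, each array left out, and the rat as a block.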

Additional observations from a re-analysis of the deposited data

Results flagged for a closer look

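The drug effect in liver differed from that in spleen for 17 members by the test of the interaction between drug and organ, with limma and Benjamini-Hochberg adjustment over 12474 genes. Among the sterol enzymes the difference, liver minus spleen on the log2 scale, was 1.53 for Dhcr7 (adjusted p = 6.59e-06), 1.42 for Sqle (adjusted p = 0.00568), 1.01 for Lss (adjusted p = 0.000248), 0.92 for Pmvk (adjusted p = 0.00575), 0.80 for Fdps (adjusted p = 0.00331), 0.72 for Idi1 (adjusted p = 0.0373) and -0.33 for Nsdhl (adjusted p = 0.0248). Among the sterol regulators it was 0.61 for Srebf2 (adjusted p = 0.0419) and -1.06 for Insig2 (adjusted p = 3.59e-05).

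In the fatty acid arm it was 2.02 for Scd (adjusted p = 0.00941), 0.92 for Pklr (adjusted p = 0.00552), 0.85 for Elovl6 (adjusted p = 0.0433), 0.72 for Fasn (adjusted p = 0.04997), 0.62 for Gpam (adjusted p = 0.0231) and 0.55 for Acss2 (adjusted p = 0.0124). It was -1.38 for Fads1 (adjusted p = 0.000646) and -1.37 for Me1 (adjusted p = 0.000292). When a rat was left out, 12 to 17 members were called. Of all genes, 33.1% were called in the same test.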

How the results depend on the processing

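Of the values of single genes under the alternatives, 1140 kept direction and call, 107 lost the call, 15 gained it and 4 reversed. The 4 came from averaging all probe sets of a gene: Sc5d in spleen gave -0.02, Srebf2 in spleen 0.22, Mvk for wood in vehicle spleens -0.86, and Srebf2 between organs -0.66. Of the counts of members called, 332 stayed within 1.5 times and 37 did not; the cause was not tested.

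For the liver drug effect, the fatty acid count of 0 became 1 on log2(intensity + 16), with a value on every array or with array weights, and 2 with genes at or above the median level or with a trended, robust prior, and it was 0 in every refit with a rat left out. The sterol count of 2 became 1 with the mean of probe sets and was 0 to 2 with a rat left out. Without wood the liver count of 1 became 2 with median centring or a value on every array, 6 with genes at or above the median level, 3 with the trended prior, and 0 with the mean of probe sets or only the groups compared, and it was 0 to 5 with a rat left out. Wood under drug in liver went from 0 to 1 with genes at or above the median level and was 0 to 1 with a rat left out.

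For the spleen drug effect, the sterol count of 12 became 6 with genes at or above the median level and 8 with the blank-array term, and was 9 to 12 with a rat left out. Without wood the count of 19 became 12 with genes at or above the median level or with that term, and was 14 to 20. Wood in vehicle spleens went from 3 to 6 (quantile scaling, trended prior, only the groups compared), 7 (median centring), 5 (log2(intensity + 16)), 1 (median level), 9 (array weights) and 0 (blank-array term), and was 2 to 8 with a rat left out, 8 without rat 2005. The spleen interaction went from 0 to 1 on log2(intensity + 16).

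With a rat left out, the other counts were 10 to 11 in the fatty acid arm of spleen, 12 to 15 in spleen with wood, 30 to 32 between organs and 12 to 17 for the drug effect between organs. With the rat as a replicate block, pairing liver and spleen, 18 members were called for the latter against 17, and 32 against 31 for the organ difference; Acaca was the added call and no other call of the drug effect between organs changed. Fasn, Idi1, Elovl6, Srebf2, Nsdhl and Gpam lost that call in 5 to 9 of 12 refits.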
